A study of Mus musculus with 18 samples.

Results

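A set of 10 genes of the heat shock chaperone system were described in mouse B-lineage lymphomas with and without the Prdm11 gene. The set held Hspa8, Hsph1, Hsp90aa1, Dnaja1, Dnajb1, Dnajb4, Dnajb3, St13, Hspd1 and Hspe1, 10 of the 19938 genes measured. The genes were taken as a list of names, and each was represented by a probe set with a single gene symbol in the platform annotation, chosen by the highest mean over the 18 arrays. The group was drawn up with earlier results of these arrays in view. St13, Dnajb3, Dnajb4 and Hspa8 had been seen there to differ between the genotypes, so their differences are given as descriptions without a p-value. All 10 mean levels lay above that of the median gene.

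The 18 tumours were end-stage tumours of the spleen, each from a separate mouse with its own identity number. Every mouse was C57BL/6 by background and bore Eμ-Myc, a transgene that places Myc under the enhancer of the immunoglobulin heavy chain locus and so expresses it in B-lineage cells. The 9 wild-type tumours (WT1 to WT9) came from Eμ-Myc;Prdm11 WT mice and the 9 knockout tumours (KO1 to KO9) from Eμ-Myc;Prdm11 KO mice, with no treatment. The sources used here do not give age, sex or the structure of the knockout allele. The tumours were frozen and homogenised with no sorting described, so each array holds RNA of lymphoma cells and of the other cells in the tumour, and fewer cells of a type and less RNA per cell cannot be told apart. Levels are log2 of the deposited Affymetrix intensities throughout, and a difference is the KO mean minus the WT mean on that scale.

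The median log2 level of an array lay between 5.14 and 5.38. WT3 stood apart from the rest, with a median correlation to the other arrays of 0.937 over all genes, against 0.958 to 0.981 for the other 17, so results that rest on it are given with and without it. The Prdm11 probe set read 4.84 to 5.66 in WT and 4.87 to 5.49 in KO tumours, a difference of -0.12 (limma, Benjamini-Hochberg adjusted p = 0.868), and whether it lies in the deleted part of the gene was not given, so it does not check the labels. Of 14 pan-B genes 13 were measured. Cd79b, a subunit of the B cell receptor, read 8.59 to 10.24 and lay above the array medians in all tumours, whereas its partner Cd79a (3.69 to 6.88), Ms4a1, which encodes CD20 (4.84 to 10.58), Ebf1 (4.25 to 8.45) and Blk (4.98 to 7.36) reached below them in some. All other measured pan-B genes stayed above the array medians in every tumour, at 5.69 or more. Some markers of the B lineage were thus uneven between tumours, while most stayed above the array medians throughout, which is not a test of their presence.

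Chaperones of the HSP70 family bind exposed hydrophobic stretches of unfolded proteins in a cycle driven by ATP. J-domain proteins bring clients to HSP70 and stimulate its ATPase, HSP110 proteins exchange the nucleotide, and cochaperones such as the product of St13 stabilise the client-bound state or hand clients on to HSP90. Mitochondria fold imported proteins in the HSP60 chamber, which is capped by HSP10. Under proteotoxic stress the transcription factor HSF1 binds heat shock elements, inverted repeats of the unit GAA, in the promoters of many of these genes.

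Promoter sequences are shown to place the genes against the heat shock element. They come from RefSeq on the GRCm38.p6 assembly, in windows from 250 bases before to 50 after each annotated start, and 7 of the 10 genes had a window, 13 windows in all. Hspa8, Hsp90aa1 and St13 were not among them. The 8-letter motifs searched were GAANNTTC and TTCNNGAA, each its own reverse complement, so both strands were covered. A longer motif with a further unit was searched as GAANNTTCNNGAA and TTCNNGAANNTTC, which are reverse complements of each other and contain the shorter motifs. A short motif was found in 15.1% of 32851 promoter windows of the genome and in 6 of the 13 windows here, from 5 genes. A longer motif was found in 0.603% of all windows and in 4 of the 13, those of Hsph1, Hspd1 and Hspe1. These 4 windows hold only 2 distinct stretches, since the windows of Hsph1 overlap and those of Hspd1 and Hspe1 share bases, so the counts of windows are not independent. A match describes these letters and is not a measured binding site.

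The stretches with matches are shown with the motif in capitals, 5′ to 3′ on the strand of the gene. Those of Hsph1 lie at chr5:149636351-149636380 and chr5:149636287-149636316 (minus strand), within the annotated gene. That of Dnaja1 lies at chr4:40722333-40722362 (plus strand), overlapping the predicted gene Gm6297. That of Dnajb4 lies at chr3:152193846-152193875 (minus strand), where its first capital is 14 bases before an annotated start that is internal to the gene.
Hsph1, before a start: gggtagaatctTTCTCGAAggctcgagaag
Hsph1, after a start: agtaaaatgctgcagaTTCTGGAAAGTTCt
Dnaja1: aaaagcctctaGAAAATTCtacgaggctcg
Dnajb4: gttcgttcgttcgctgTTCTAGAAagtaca

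Hspd1 and Hspe1 are divergent neighbours on chromosome 1, and a single stretch, chr1:55088053-55088082, carries overlapping motifs that fall in windows of both. Its first motif base lies 89 bases before the start of Hspe1, on the plus strand, and 144 bases before an internal start of Hspd1, on the minus strand. The pair is shown because the 2 genes are read from opposite strands of the same bases and are compared below.
Hspe1, plus strand: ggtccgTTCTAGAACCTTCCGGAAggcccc
Hspd1, minus strand: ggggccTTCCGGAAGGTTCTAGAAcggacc

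No match was found in the windows of Dnajb1 and Dnajb3, which says only that these letters are not there. The 250 bases before the first start of Dnajb1, chr8:83607925-83608174 (plus strand), are shown since its level followed that of Dnajb4 most closely.
Dnajb1: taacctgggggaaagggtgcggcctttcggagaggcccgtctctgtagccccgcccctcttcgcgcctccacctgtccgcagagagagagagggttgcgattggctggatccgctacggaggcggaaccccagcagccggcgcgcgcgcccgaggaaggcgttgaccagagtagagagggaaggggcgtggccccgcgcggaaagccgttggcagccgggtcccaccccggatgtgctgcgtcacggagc

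The first question was how each gene stood in KO against WT tumours. None of the 10 genes passed the adjusted threshold of 0.05 (0 of 10, limma with Benjamini-Hochberg adjustment over 19938 genes), where 0.00502% of all genes did, a single gene. At an unadjusted p under 0.05 there were 3 of 10, St13 higher and Dnajb4 and Dnajb3 lower in KO tumours, against 6.7% of all genes (2.83% higher and 3.87% lower). These 3 were among the genes seen to differ beforehand, so nothing is read from that count, which was 6 without WT2. The difference was positive in 7 genes and negative in 3, with a median of 0.19, beside a median of -0.03 over all genes, 40.8% of which were positive. That count also holds the genes seen to differ beforehand, and Hspe1, at 0.004, counts as positive. The values over all genes include dim ones, whereas all 10 members lay above the median gene. No member had all tumours of a genotype beyond all of the other, which held for 0.01% of all genes.

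**Figure D1:**
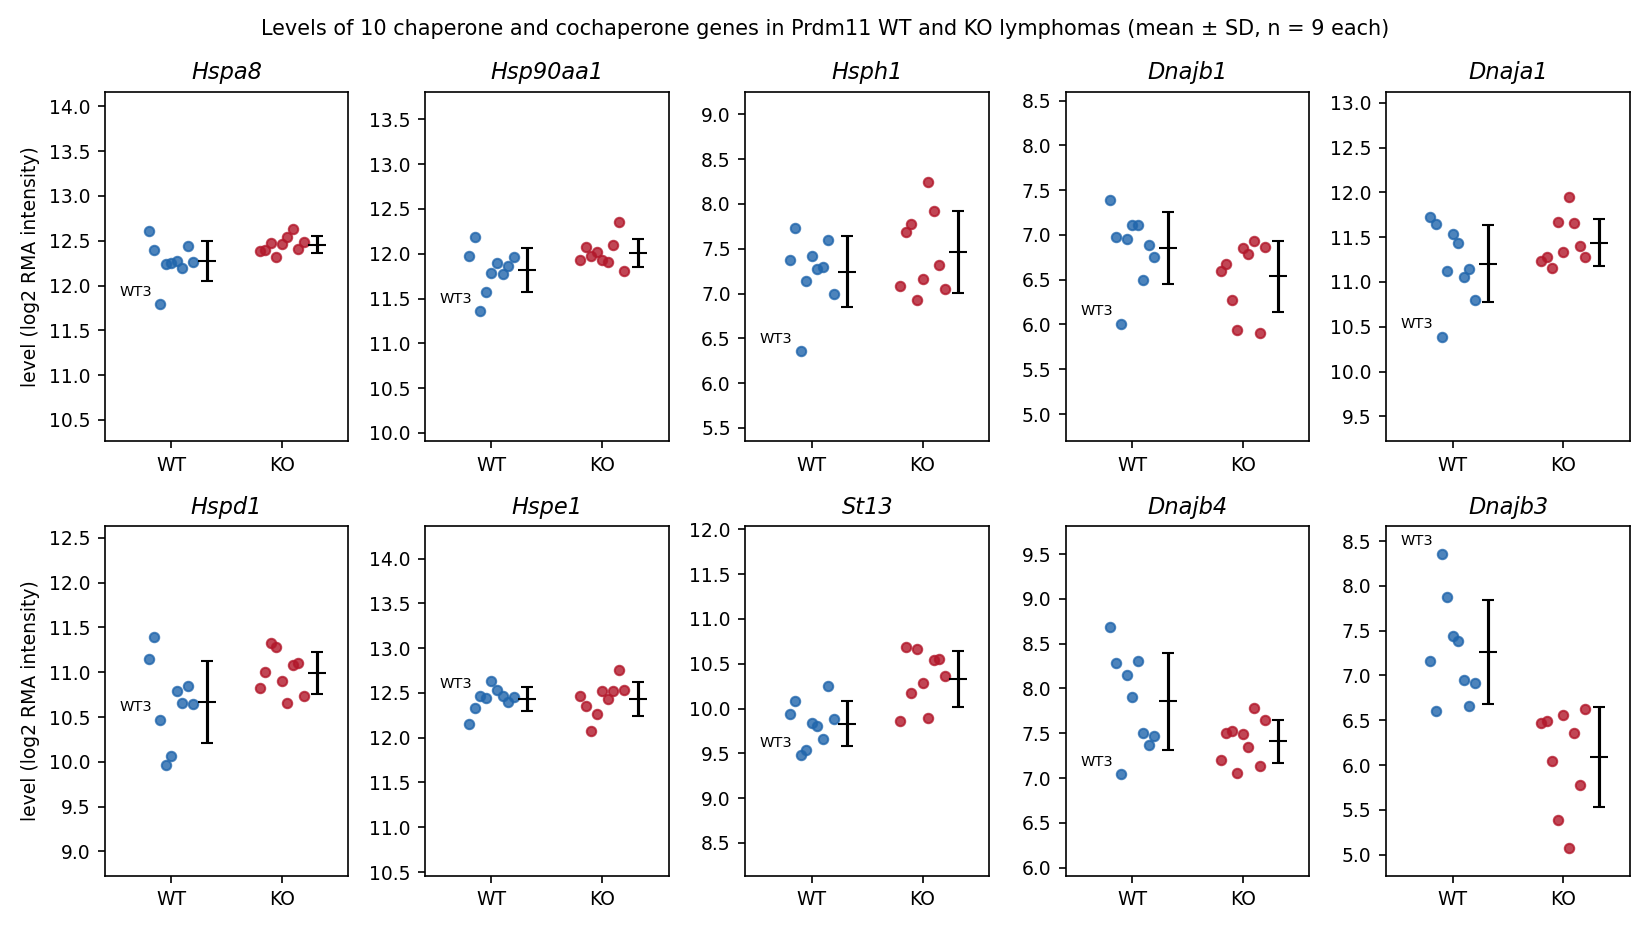
Level of each of the 10 genes (log2 intensity, vertical axis, the same span in every panel) in 9 WT and 9 KO tumours. Points are tumours, bars give the mean ± SD, and WT3 is labelled; it is the lowest WT tumour for Hspa8, Hsph1, Hsp90aa1, Dnaja1, Dnajb1, Dnajb4 and St13 and the highest for Dnajb3.

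Hspa8 encodes HSC70, the constitutive cytosolic HSP70. Its level ran from 11.79 over a median of 12.26 to 12.61 in WT tumours and from 12.32 over 12.46 to 12.63 in KO tumours. All 9 KO tumours lay above the WT median and 6 WT tumours lay below every KO tumour, while WT1, at 12.61, reached almost the highest KO value. The means were 12.27 ± 0.22 (SD, n = 9) and 12.46 ± 0.09 (SD, n = 9), a difference of 0.18 ± 0.09 (SE), which was 0.12 without WT3. Its other probe sets gave 0.11 and 0.23. By the probe set used, Hspa8 was among the steadiest genes on these arrays, with an SD within genotype of 0.17, at the 10.2nd percentile of all genes. That set ran from 11.79 to 12.63 over all tumours, and another ran more widely, from 11.07 to 12.37.

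Hsph1 encodes HSP110, a nucleotide exchange factor of HSP70. It read 6.36, 7.3 and 7.73 (lowest, median, highest) in WT tumours and 6.93, 7.32 and 8.24 in KO tumours. The groups overlapped over most of their range, with 3 KO tumours above all WT tumours and WT3 below all KO tumours. The difference was 0.22 ± 0.19 (SE; 95% interval -0.172 to 0.609; limma adjusted p = 0.85), and 0.11 without WT3. KO6, the highest tumour for Hsph1, was also the tumour with the highest T cell marker level, 7.56, and the highest pan-B marker level, 8.1. It was highest for endothelial and stromal markers as well (5.55) and lowest for erythroid (6.2) and mitosis markers (7.63). Over all tumours Hsph1 had r of 0.63 with the pan-B list (permutation p = 0.00516, adjusted p = 0.0516). With the T cell list r was 0.35 (permutation p = 0.157, adjusted p = 0.403), and neither relation passed. Without KO6 the difference of Hsph1 between genotypes was 0.121. It was 0.024 with pan-B markers as a covariate, and 0.505 when T cell markers entered the fit along with macrophage and erythroid ones. T cell markers were not fitted on their own. Whether cells with these markers contribute to the level of Hsph1 was not tested.

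Hsp90aa1 encodes HSP90α, the stress-inducible cytosolic HSP90. It read 11.36, 11.86 and 12.19 in WT tumours and 11.81, 11.97 and 12.35 in KO tumours. A total of 8 KO tumours exceeded the WT median, yet 1 alone exceeded every WT tumour. The difference was 0.19 ± 0.10 (SE; 95% interval -0.02 to 0.399; limma adjusted p = 0.77), 0.13 without WT3. Its other probe sets differed by 0.18 and 0.17, although WT3 was low in the first of them and not in the second (-0.5 and 0.12 relative to the mean of the other WT tumours).

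St13 encodes HIP, the cochaperone that holds HSP70 in its client-bound form. Its level ran from 9.48 over a median of 9.84 to 10.25 in WT tumours and from 9.86 over 10.36 to 10.69 in KO tumours. All 9 KO tumours were above the WT median and 6 were above every WT tumour, so the groups met only in the middle of the range. The means were 9.83 ± 0.25 (SD, n = 9) and 10.33 ± 0.31 (SD, n = 9), a difference of 0.50 ± 0.13 (SE), or 0.46 without WT3. Its 6 nearest measured neighbours on chromosome 15 differed by -0.09 to 0.30, and the largest of these, Slc25a17, had a limma adjusted p of 0.83.

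J-domain proteins made up 4 of the 10. Dnaja1, an abundant cytosolic partner of HSC70, read 10.39, 11.14 and 11.73 in WT tumours and 11.16, 11.33 and 11.95 in KO tumours. All 9 KO tumours lay above the WT median, 5 WT tumours lay below every KO tumour, and the upper ends of the groups overlapped. The difference was 0.23 ± 0.16 (SE; 95% interval -0.098 to 0.566; limma adjusted p = 0.81). It was 0.13 without WT3, where Dnaja1 stood at -0.92 relative to the mean of the other WT tumours. Its other probe set read much lower, with means of 8.49 in WT and 8.64 in KO tumours. That set differed by 0.16 and had r of 0.83 to the one used.

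Dnajb1, HSP40, is the stress-inducible partner of the cytosolic HSP70s. It went the other way, at 6.01, 6.95 and 7.39 in WT tumours and 5.9, 6.68 and 6.93 in KO tumours. All 9 KO tumours lay below the WT median and 5 WT tumours exceeded every KO tumour, but WT3 lay near the bottom with KO4. The difference was -0.32 ± 0.18 (SE; 95% interval -0.687 to 0.049; limma adjusted p = 0.777), and -0.42 without WT3. The macrophage marker list moved with Dnajb1, as described below. With the erythroid list r was 0.58 (permutation p = 0.00782, adjusted p = 0.0704), which did not pass, and rho was 0.68 (adjusted p = 0.0475). That r was 0.71 within WT and 0.19 within KO tumours.

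Dnajb4, a J-domain protein of the same class as Dnajb1, read 7.04, 7.9 and 8.68 in WT tumours and 7.06, 7.49 and 7.78 in KO tumours. All 9 KO tumours lay below the WT median, 5 WT tumours lay above every KO tumour, and WT3 lay below all of them. The means were 7.86 ± 0.54 (SD, n = 9) and 7.41 ± 0.24 (SD, n = 9), a difference of -0.45 ± 0.18 (SE), or -0.55 without WT3. Of its neighbours on chromosome 3, the 6 nearest measured differed by -0.04 to 0.34, the highest being Fubp1 (limma adjusted p = 0.699).

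Dnajb3, a J-domain gene known from the testis, had the widest separation. It read 6.6, 7.16 and 8.36 in WT tumours and 5.07, 6.36 and 6.63 in KO tumours. All but 1 KO tumour lay below every WT tumour, and all but 1 WT tumour lay above every KO tumour. The means were 7.26 ± 0.57 (SD, n = 9) and 6.09 ± 0.56 (SD, n = 9), a difference of -1.17 ± 0.24 (SE), a level 2.25-fold lower in KO tumours, and -1.04 without WT3, its highest tumour.

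The lowest Dnajb3 value, 5.07 in KO6, lay below every array median, so the low end of its range is close to that of a gene with little signal. Dnajb3 lies inside the Ugt1a cluster on chromosome 1, whose overlapping genes share a region with it. Those genes were not analysed here, since their probe set carries several symbols. The 6 nearest measured genes outside the cluster differed by -0.22 to 0.31, all with a limma adjusted p of 0.782 or more.

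The mitochondrial chaperonin genes did not run in parallel. Hspd1, HSP60, read 9.97, 10.66 and 11.39 in WT tumours and 10.66, 11 and 11.33 in KO tumours. As many as 8 KO tumours exceeded the WT median and 4 WT tumours lay below every KO tumour, yet the highest tumour of all was WT. The difference was 0.32 ± 0.16 (SE; 95% interval -0.014 to 0.66; limma adjusted p = 0.761), and 0.22 with its other probe set.

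Hspe1, HSP10, read 12.15, 12.45 and 12.63 in WT tumours and 12.07, 12.47 and 12.75 in KO tumours. The KO range enclosed that of the WT tumours, and 5 KO tumours lay above the WT median. Its difference was 0.004 ± 0.09 (SE; 95% interval -0.178 to 0.187; limma adjusted p = 0.997). The SD within genotype was 0.16, at the 8.67th percentile of all genes. Probe sets of Hspa8, Hsp90aa1, Dnaja1, Hspd1 and Hspe1 may also match processed copies of these genes elsewhere in the genome, which the annotation does not settle.

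**Figure D2:**
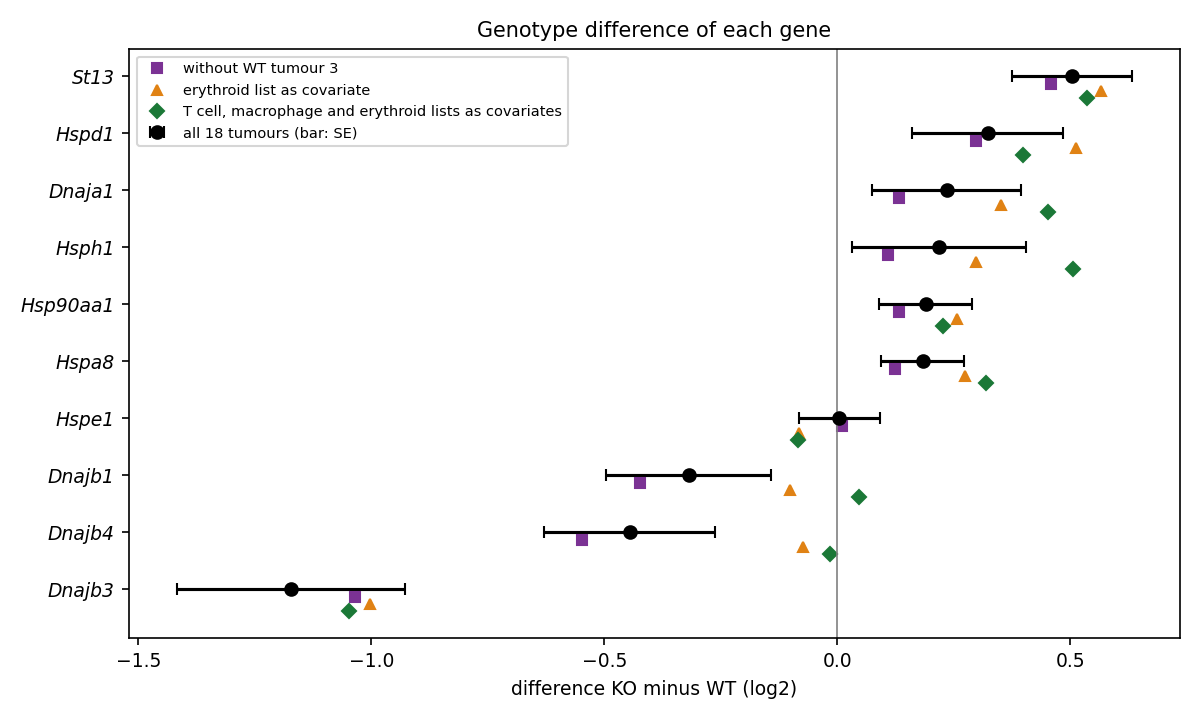
Difference KO minus WT on the log2 scale (horizontal axis) for each gene, from all 18 tumours with its SE (black), without WT3 (squares), and with the erythroid list (triangles) or all of the erythroid, macrophage and T cell lists (diamonds) as covariates. St13 stays between 0.46 and 0.57 and Dnajb3 between -1.17 and -1.002, while Dnajb4 moves from -0.45 to -0.07 and -0.02.

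Marker lists of other cell types were set beside these differences. The erythroid list, hemoglobin and red cell membrane genes among others, was lower in KO tumours in 10 of 10 measured genes, with a mean of 7.06 to 8.8 in WT tumours, 6.2 to 7.6 in KO tumours and a difference of -0.59; 0 of these genes passed the adjusted threshold. With this list as a covariate the difference of Dnajb4 was -0.07 and that of Dnajb1 -0.10, that of St13 0.57 and that of Dnajb3 -1.002. The macrophage and monocyte list ran from 6.71 to 7.64 in WT and from 6.59 to 7.45 in KO tumours. It was lower in KO tumours in 10 of 12 genes, with a difference of -0.19. The neutrophil list differed by -0.34 (lower in 12 of 12 genes) and the T cell list by -0.29 (10 of 11 lower). The NK and cytotoxic list differed by -0.28 (9 of 10 lower) and the pan-B list by 0.28 (higher in 11 of 13). In size these lay between the differences of the macrophage and erythroid lists, with 0 genes past the threshold in each list. With the erythroid, macrophage and T cell lists together as covariates, Dnajb4 differed by -0.02 and Dnajb1 by 0.05, while Hsph1 differed by 0.50, Dnaja1 by 0.45 and Hspa8 by 0.32. The pan-B list as a covariate left a difference of 0.02 for Hsph1.

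The second question was how the 10 genes moved together over the 18 tumours. Pearson's r was computed for all 45 pairs of genes, with a two-sided permutation test of 100000 resamples, and p-values were adjusted over the 45 pairs. All values come from the same arrays and share their normalization. A total of 16 pairs passed an adjusted p of 0.05, 10 positive and 6 negative, of which 12 had the same sign within both genotypes. With genotype means subtracted 10 pairs passed, 7 of them among the 16. In 3 of the 16 pairs, Hspa8 with St13, Hspa8 with Dnajb3 and St13 with Dnajb3, both genes had been seen beforehand to differ between the genotypes, so those relations are descriptions. By Spearman's rho 7 pairs passed, all of them among the 16. Without WT3 there were 5, of which 4 were among the 16, and without WT3 and KO4 there were 2, Dnajb1 with Dnajb4 and Hsp90aa1 with Hspd1.

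**Figure D3:**
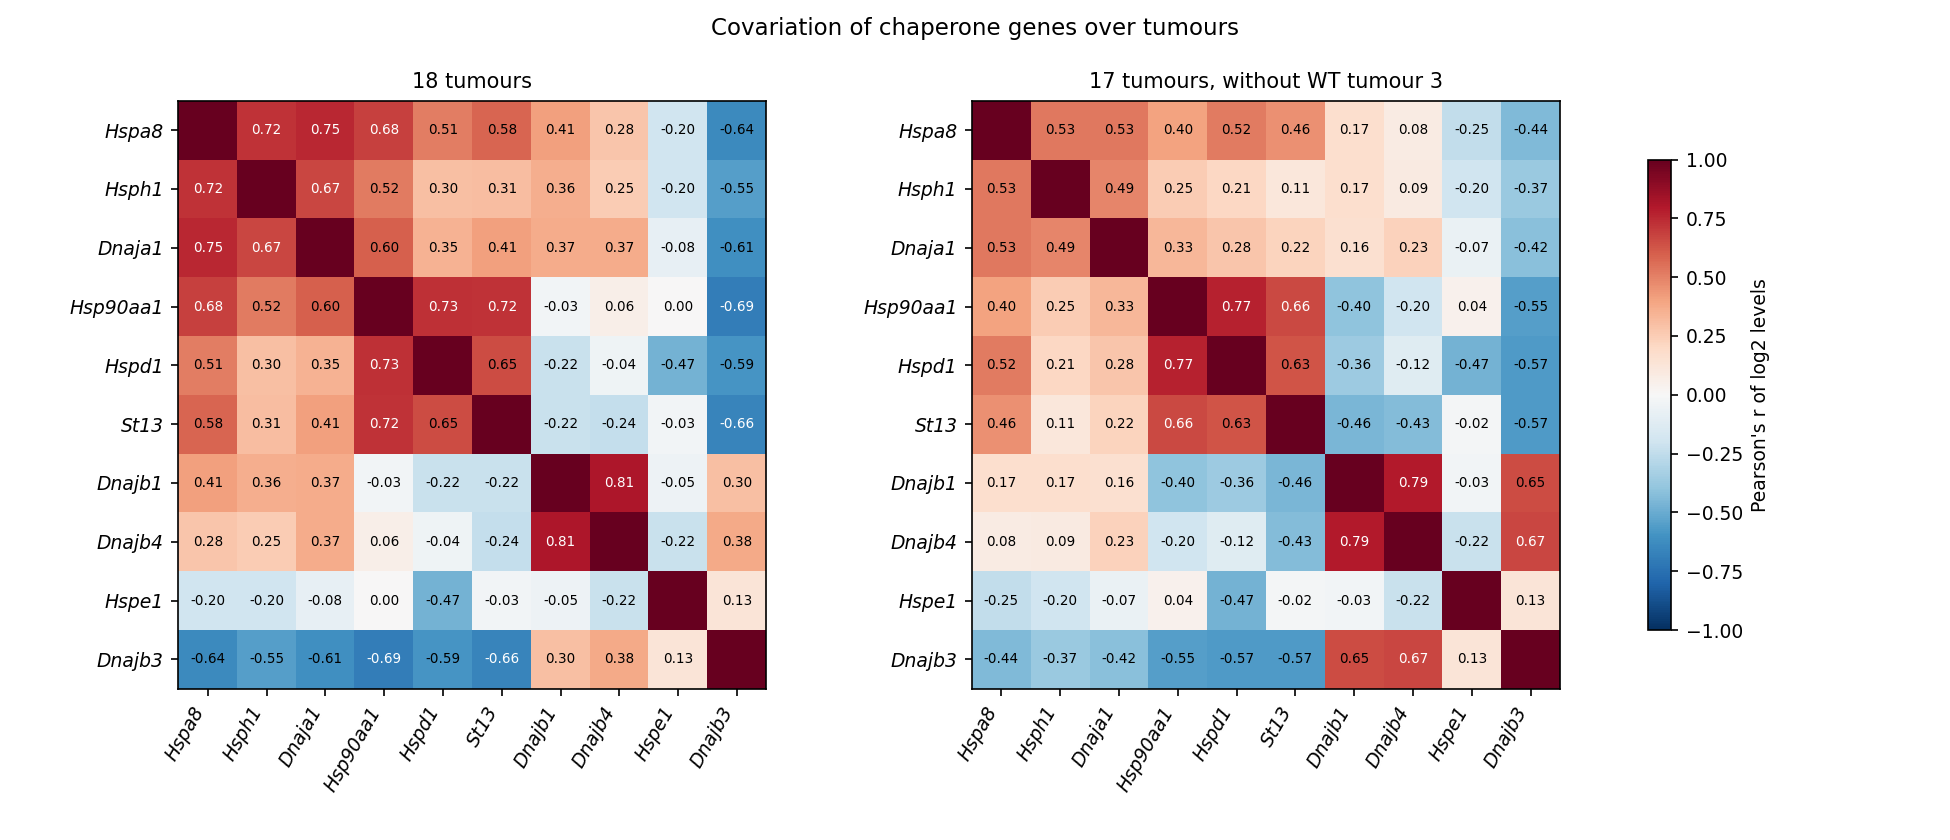
Pearson's r between log2 levels of each pair of the 10 genes, in all 18 tumours (left) and without WT3 (right), on a colour scale from -1 (blue) to 1 (red) with the value in each cell. Hspa8, Hsph1 and Dnaja1 have r of 0.67 to 0.75 with each other on the left and 0.49 to 0.53 on the right, while Dnajb1 and Dnajb4 have 0.81 and 0.79.

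Dnajb1 and Dnajb4 had the closest relation, with r = 0.81 (permutation p = 4e-05, adjusted p = 0.0018) and rho = 0.85 (permutation p = 4e-05, adjusted p = 0.0009). Both were high in WT tumours at the top of the range and low in WT3, KO4 and another KO tumour. Without the 2 tumours farthest from the median of Dnajb1, r was 0.79. It was 0.86 within WT tumours (exact permutation p = 0.00126, n = 9) and 0.76 within KO tumours (exact permutation p = 0.0239, n = 9). Without WT3 it was 0.79 over all tumours and 0.81 within WT tumours. The relation passed the threshold whichever tumour was left out, with r from 0.77 to 0.84.

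Hsp90aa1, Hspd1 and St13 formed a positive trio. Hsp90aa1 and Hspd1 had r = 0.73 (permutation p = 0.00126, adjusted p = 0.013) and rho = 0.83 (permutation p = 4e-05, adjusted p = 0.0009). This was 0.85 without the 2 tumours farthest from the median and 0.77 without WT3. Within WT tumours r was 0.73 (exact permutation p = 0.0257, n = 9) and within KO tumours 0.48 (exact permutation p = 0.197, n = 9).

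Hsp90aa1 and St13 had r = 0.72 (permutation p = 0.00036, adjusted p = 0.0081) and rho = 0.74 (permutation p = 0.00076, adjusted p = 0.0114), with 0.62 without the 2 farthest tumours, 0.66 without WT3 and 0.64 with genotype means subtracted. Hspd1 and St13 had r = 0.65 (permutation p = 0.0029, adjusted p = 0.0156) and rho = 0.69 (permutation p = 0.00218, adjusted p = 0.0196), with 0.60, 0.63 and 0.55 in the same order. Within genotypes the first pair had r of 0.78 in WT (exact permutation p = 0.0113, n = 9) and 0.53 in KO tumours (exact permutation p = 0.109, n = 9). Hspd1 and St13 had 0.64 in WT (exact permutation p = 0.0622, n = 9) and 0.54 in KO tumours (exact permutation p = 0.133, n = 9). With genotype means subtracted Hspd1 and St13 did not pass the threshold. These 3 relations and that of Dnajb1 with Dnajb4 were the ones that passed with and without WT3.

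Hspa8, Hsph1 and Dnaja1, which make up the cytosolic HSC70 machine with its exchange factor and J-domain partner, moved together less firmly. Hspa8 and Dnaja1 had r = 0.75 (permutation p = 0.00162, adjusted p = 0.013), with rho = 0.58 (adjusted p = 0.0575). Hspa8 and Hsph1 had r = 0.72 (permutation p = 0.00174, adjusted p = 0.013), with rho = 0.57 (adjusted p = 0.0611). WT3 was the lowest WT tumour for all of them, and without it both values were 0.53 and neither relation passed. Without the 2 farthest tumours they were 0.48 and 0.44, so these relations rest on few tumours. Hspa8 and Hsp90aa1 had r = 0.68 (permutation p = 0.00598) in all tumours, 0.40 without WT3, 0.79 within WT (exact permutation p = 0.0224, n = 9; 0.52 without WT3) and -0.12 within KO tumours (exact permutation p = 0.774, n = 9); the difference between genotypes was not tested.

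Hspa8 and Dnajb1, the classical HSP70 and HSP40 pair, showed little relation over all tumours, with r = 0.41 (permutation p = 0.122). Within genotypes r was 0.87 in WT (exact permutation p = 0.00936, n = 9) and 0.68 in KO tumours (exact permutation p = 0.0317, n = 9), but 0.65 in WT tumours without WT3 (exact permutation p = 0.0842, n = 8). Hspa8 and Dnajb4 had r of 0.28 over all tumours (permutation p = 0.228), 0.69 within WT (exact permutation p = 0.0292, n = 9; 0.47 without WT3) and 0.78 within KO tumours (exact permutation p = 0.012, n = 9). In both pairs the genotype differences have opposite signs, and with genotype means subtracted r was 0.75 and 0.70, or 0.61 and 0.55 without WT3. These within-genotype p-values are unadjusted.

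Dnajb3 ran against most of the group. Its relation to Hsp90aa1 was r = -0.69 (permutation p = 0.00154, adjusted p = 0.013; rho = -0.67, adjusted p = 0.0225), and that to St13, given as a description, was r = -0.66 (rho = -0.72). With genotype means subtracted these were -0.60 and -0.31, or -0.42 and -0.17 without WT3 as well. WT3 and WT4 were the highest tumours for Dnajb3 and the lowest for St13. Within WT tumours the values were -0.87 (exact permutation p = 0.00396, n = 9) and -0.84 (exact permutation p = 0.0034, n = 9), or -0.74 and -0.78 without WT3. Within KO tumours they were -0.19 (exact permutation p = 0.584, n = 9) and 0.13 (exact permutation p = 0.729, n = 9), where KO6 was low for both genes; the difference between genotypes was not tested. Over all tumours but WT3 they were -0.55 and -0.57, the first of them no longer past the threshold. Without that tumour Dnajb3 had a positive r with Dnajb1 and Dnajb4 (0.65 and 0.67), which was 0.30 and 0.38 with it.

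Hspd1 and Hspe1, the divergent pair whose shared stretch is printed above, did not rise together. Their r was -0.47 (permutation p = 0.0442, adjusted p = 0.111; rho = -0.44, adjusted p = 0.164), with -0.48 without the 2 farthest tumours and -0.47 without WT3. It was -0.68 within WT tumours (exact permutation p = 0.0407, n = 9) and -0.47 within KO tumours (exact permutation p = 0.201, n = 9). The KO tumour lowest for Hspe1 was the highest KO tumour for Hspd1.

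**Figure D4:**
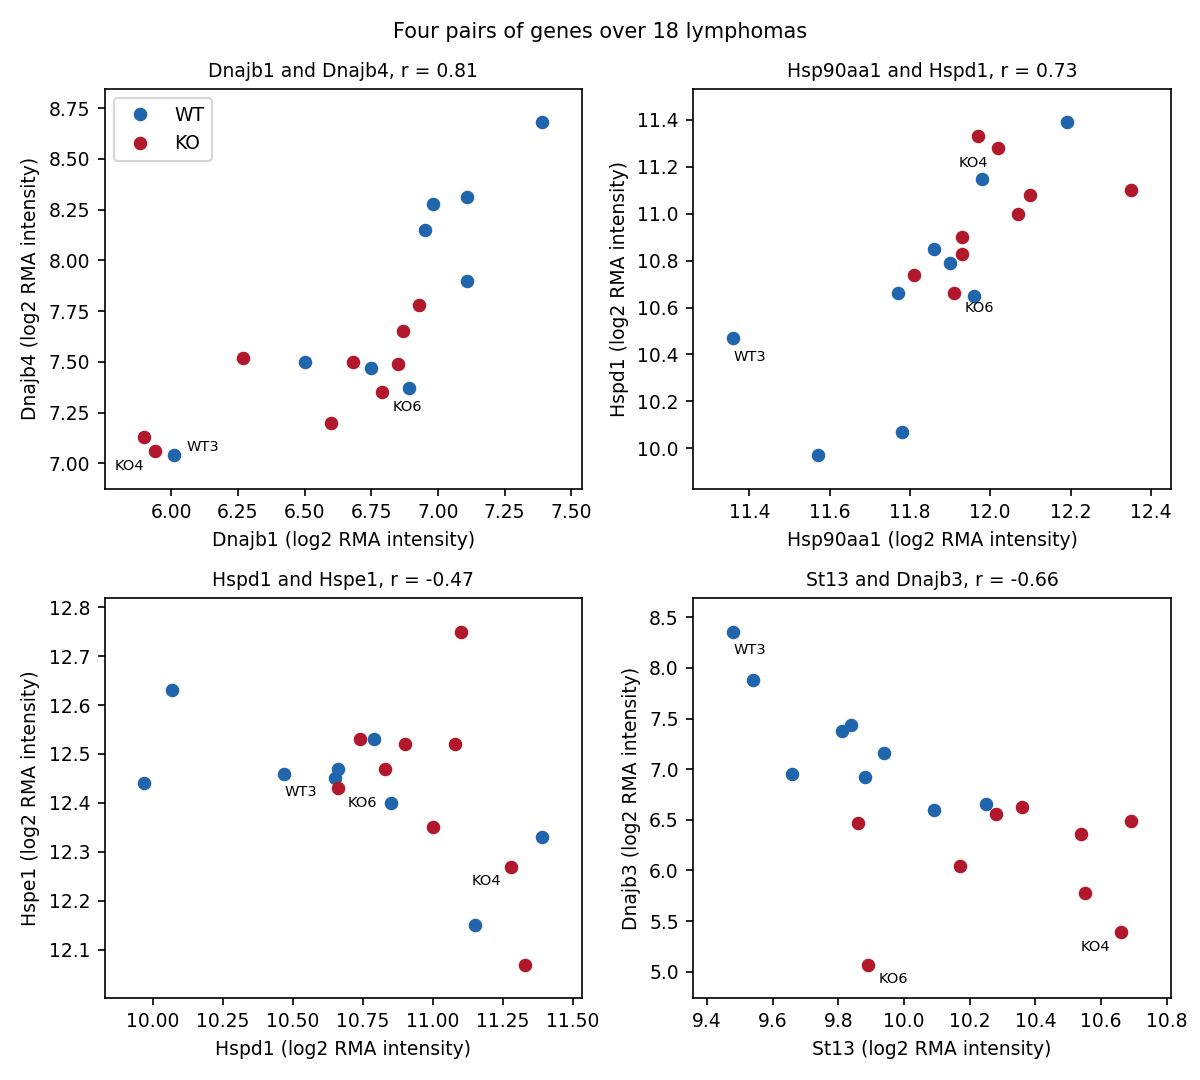
Levels (log2 intensity on both axes) of Dnajb1 and Dnajb4, Hsp90aa1 and Hspd1, Hspd1 and Hspe1, and St13 and Dnajb3 in 9 WT (blue) and 9 KO (red) tumours, with WT3, KO4 and KO6 labelled. The panels have r of 0.81, 0.73, -0.47 and -0.66, and WT3 lies at the end of the range of St13 and Dnajb3.

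Over 90 relations of the 10 genes with 9 marker lists, 8 passed an adjusted p of 0.05. Dnajb4 followed the erythroid list, with r = 0.84 (permutation p = 6e-05, adjusted p = 0.0054) and rho = 0.80 (permutation p = 0.00018, adjusted p = 0.0162). It was 0.83 without the 2 farthest tumours and 0.87 without WT3, 0.91 within WT and 0.52 within KO tumours. Dnajb1 followed the macrophage and monocyte list, with r = 0.76 (permutation p = 0.00026, adjusted p = 0.0117) and rho = 0.65 (permutation p = 0.00422, adjusted p = 0.0633), 0.63 without the 2 farthest tumours, 0.58 within WT and 0.90 within KO tumours. Both passed whichever tumour was left out. Whether RNA of those cells contributes to the 2 genes was not tested.

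St13 rose with the list of MYC targets in ribosome biogenesis, with r = 0.70 (permutation p = 0.001, adjusted p = 0.018) and rho = 0.68 (permutation p = 0.00264, adjusted p = 0.0475). It was 0.54 without the 2 farthest tumours, 0.75 within WT and 0.54 within KO tumours, and it no longer passed without WT4 (adjusted p = 0.0987). That list was higher in KO tumours in 15 of 15 genes, at 8.8 to 9.52 in WT and 8.85 to 9.66 in KO tumours, with 0 past the threshold. Hsp90aa1 (r = 0.66, permutation p = 0.00344, adjusted p = 0.0421) and Hspd1 (r = 0.67, permutation p = 0.00374, adjusted p = 0.0421) moved with it too. Their rho had adjusted p of 0.123 and 0.244, r without the 2 farthest tumours was 0.39 and 0.49, and the calls were lost on leaving out any of 13 and 12 single tumours, WT3 among them (0.56 and 0.65 without it).

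Hspd1 was lower in tumours where markers of cytotoxic cells and neutrophils were higher, lists whose own mean levels were lower in KO tumours. Its r was -0.76 with the NK and cytotoxic list (permutation p = 0.00052, adjusted p = 0.0156; rho = -0.76, adjusted p = 0.0174) and -0.73 with the neutrophil list (permutation p = 0.001, adjusted p = 0.018; rho = -0.60, adjusted p = 0.108). These were -0.68 and -0.44 without the 2 farthest tumours, -0.77 and -0.77 within WT, and -0.71 and -0.60 within KO tumours. Neither passed without WT4 (r = -0.65 and -0.64), and the neutrophil relation did not pass without WT5 either. With the mitosis list r was 0.65 (permutation p = 0.00352, adjusted p = 0.0421; rho = 0.75, adjusted p = 0.0174), 0.73 without the 2 farthest tumours, 0.85 within WT and 0.51 within KO tumours, and the call was lost on leaving out any of 14 single tumours.

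Genes whose levels were most like those of each member were taken from 9968 genes above the median level, by r over the 18 tumours after subtraction of genotype means, as a description. For Hspa8 they were Usp8, Capns1 and Rsbn1l (0.92, 0.92 and 0.91; 0.84, 0.83 and 0.81 without WT3). For Hsp90aa1 they were Cnot2, Hdac2 and Ranbp2 (0.94, 0.86 and 0.84), and for Hsph1 St3gal1, Ddx17 and Garre1 (0.84, 0.82 and 0.81). Dnaja1 was closest to Ahsa2, Phc3 and Cnot4 (0.90, 0.88 and 0.87), and Dnajb1 to Ftl1, Rnf14 and Pon2 (0.93, 0.92 and 0.91). For the last 4 the values without WT3 lay between 0.73 and 0.92.

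Hspd1 was closest to Kpnb1, Eprs and Gtpbp4 (0.93, 0.93 and 0.91), and Hspe1 to Atp5md, Lsm5 and Zfp971 (0.94, 0.92 and 0.91). Their nearest genes had values without WT3 of 0.91 to 0.95. St13 was closest to Ppid, Atad2 and Tars (0.83, 0.80 and 0.79), Dnajb4 to Gcnt1, Mkrn1-ps1 and Marchf2 (0.93 each), and Dnajb3 to Mxd3, Fcna and Mpv17l2 (0.83, 0.82 and 0.81). The pairing of St13 with Ppid held without WT3, at 0.86.

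The members were also set within the wider chaperone network of 137 other genes in 13 lists. Of these 0 passed the adjusted threshold and 14 had an unadjusted limma p under 0.05, or 10.2%, 8 higher and 6 lower in KO tumours, beside 6.7% of all genes. A positive difference was found in 82 of 137, or 59.9%, beside 40.8% of all genes, with a median of 0.04 beside -0.03. Hspa1b, Hsp90ab1 and Hsf1 were not analysed here. The medians below include members.

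**Figure D5:**
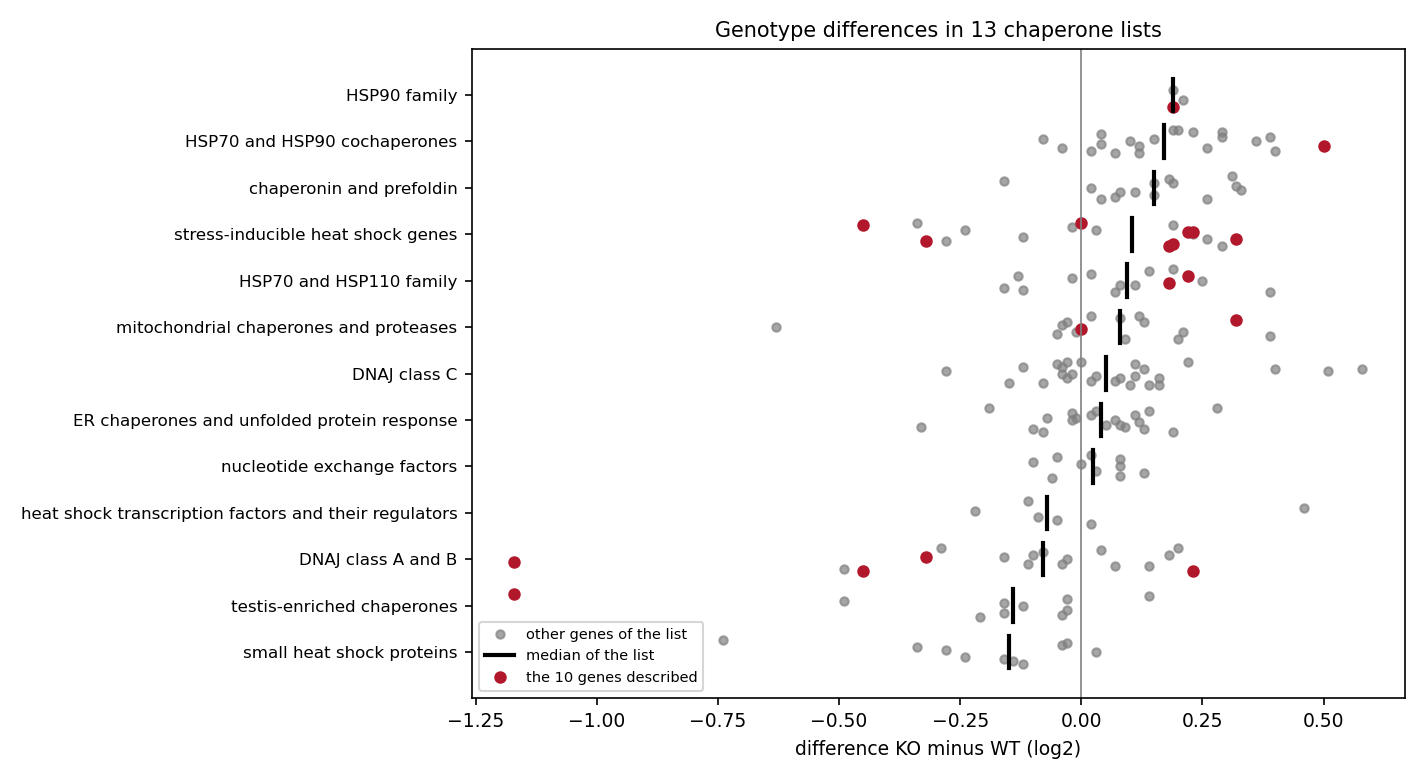
Difference KO minus WT on the log2 scale (horizontal axis) of each measured gene in 13 chaperone lists, with the 10 genes described in red, other genes in grey and the median of each list as a bar. List medians run from -0.15 for small heat shock proteins to 0.19 for the HSP90 family.

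The HSP70, HSP90, cochaperone and chaperonin lists, which include forms of the mitochondria and the endoplasmic reticulum, had positive medians. In the HSP70 and HSP110 list 10 of 14 genes had a positive difference (median 0.10), among them Hspa4 at 0.25 and Hspa14 at 0.19, both cytosolic HSP70 relatives. All 3 measured HSP90 genes were positive (median 0.19), with the mitochondrial form Trap1 at 0.21 and the endoplasmic reticulum form Hsp90b1 at 0.19. Among HSP70 and HSP90 cochaperones, where St13 belongs, 18 of 20 were positive (median 0.17), with Tomm34 at 0.29 ± 0.11 (SE; limma adjusted p = 0.699) and the immunophilin Fkbp5 at 0.36. In the list of the cytosolic chaperonin and prefoldin, which fold actin and tubulin, 13 of 14 were positive (median 0.15), including the ring subunits Cct5 at 0.31 and Cct2 at 0.26. These 4 medians were positive under every alternative setting, from 0.05 to 0.25, and over the genes other than members they were 0.08, 0.20, 0.15 and 0.15.

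J-domain proteins of classes A and B had 6 of 17 positive and a median of -0.08, and without the 4 members 5 of 13 and -0.04, close to the share and median of all genes. Besides Dnajb3, Dnajb4 and Dnajb1, the membrane-anchored Dnajb14 differed by -0.49 ± 0.15 (SE; limma adjusted p = 0.665) and Dnaja4 by -0.29. Of the small heat shock proteins 1 of 10 was positive (median -0.15), with Hspb11 at -0.74 ± 0.25 (SE; limma adjusted p = 0.699) and αB-crystallin, Cryab, at -0.34. Of testis-enriched chaperones, Dnajb3 among them, 1 of 10 was positive (median -0.14), and Clgn, the germ cell calnexin relative, differed by -0.49 ± 0.11 (SE; limma adjusted p = 0.389), at mean levels of 4.43 in WT and 3.93 in KO tumours, while Dnajb8 differed by -0.16. Without Dnajb3 the testis list had 1 of 9 positive and a median of -0.12. In the full testis list 5 of 10 genes, Clgn among them, had a mean level below the median gene. The medians of these lists stayed negative under every alternative setting.

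The stress-inducible list, which holds 8 of the members, had 11 of 18 genes positive (median 0.11, from 0.04 to 0.18 over the alternatives). Without the members it had 5 of 10 positive and a median of 0.01. Cryab, which is also in this list, was at -0.34, and Ahsa1, the activator of the HSP90 ATPase, at 0.29. The mitochondrial list had 10 of 15 positive (median 0.08), with Hspa9, mortalin, at 0.39 and the iron-sulfur cochaperone Hscb at -0.63 ± 0.30 (SE; limma adjusted p = 0.75). In DNAJ class C 16 of 26 were positive (median 0.05), with Dnajc21 at 0.58 ± 0.26 (SE; limma adjusted p = 0.728) and Dnajc13 at 0.51. The endoplasmic reticulum list had 12 of 20 positive (median 0.04), with Canx at 0.28 and Ddit3 at -0.33, and the nucleotide exchange factors 7 of 10 (median 0.03), with Bag6 at 0.13 and Hspbp1 at 0.08. Among heat shock factors and their regulators 2 of 6 were positive (median -0.07), with Hsf2 at 0.46 ± 0.14 (SE; limma adjusted p = 0.667) and Hsf4 at -0.22. In the heat shock factor list 4 of 6 genes, Hsf4 among them, had a mean level below the median gene. The medians of the class C, endoplasmic reticulum, mitochondrial, exchange factor and heat shock factor lists changed sign under at least 1 alternative setting.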

How the data were processed

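Total RNA of 18 tumours, 1 array per tumour, was measured on Affymetrix arrays. Each deposited value is a linear intensity of a probe set (1.63 to 14996), and RMA was the authors' tool, per the submitters' processing notes. The RMA version, genome build and normalization reference are not given in the sources used here. As the design had foreseen log2 values, log2 of the deposited intensities was taken, with no pseudocount and no filter on dim probe sets. RMA usually sets the probe intensities of all arrays to a common distribution, in which case a shift shared by all genes cannot be seen. The medians of the deposited arrays still differed, at 5.14 to 5.38 on the log2 scale.

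Of 35556 probe sets, 21789 had 1 symbol in the platform annotation, 1621 had several and 12146 had none. Identifiers of 21698 matched a RefSeq gene table (GRCm38.p6), which changed 0 symbols. The probe set with the highest mean represented each of 19938 genes, and 999 had more than 1. Of 153 pairs of arrays 0 were identical, with at most 0.045% equal values. The number of arrays, 9 per genotype, limits the precision.

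Genotypes were compared over all genes with limma 3.58.1 in R 4.3.3 (lmFit, eBayes), which was tested on simulated data, with Benjamini-Hochberg adjustment and a threshold of 0.05. Correlations used Python 3.11.15 with numpy 2.4.6, pandas 2.3.3 and scipy 1.17.1, and figures matplotlib 3.10.9. A marker list's level is the mean log2 level of its measured genes in a tumour. The genes described, the chaperone and marker lists and the tests were chosen with earlier results of these data known. Besides the 10 genes, those named are the 2 genes of each list with the smallest p, the 3 genes most like each member (unannotated clones passed over), up to 3 measured neighbours per side of members that differed by over 0.4, and Prdm11. Cd79a, Cd79b, Ms4a1, Ebf1 and Blk were chosen after their values were seen. Alternatives were the choice of probe set, normalization, covariates, array weights and the tumours included.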

Additional observations from a re-analysis of the deposited data

Results flagged for a closer look

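In WT3, Hspa8 read 11.79, where the nearest of the other WT tumours read 12.2 and the highest 12.61. The gap was 0.51 of the group's range, past Dixon's limit for 9 samples. Of 20 groups looked at, each of the 10 genes in each genotype, this was 1, and chance alone sets apart about 1 group in 20. All 3 probe sets of Hspa8 were low in that tumour, by -0.51, -0.54 and -0.94 relative to the mean of the other WT tumours.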

How the results depend on the processing

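Under all 30 alternative settings 0 of the 10 genes and 0 of the 137 other chaperone genes passed the adjusted limma threshold. The count of members at an unadjusted p under 0.05, 3 with all tumours, was 5 with array weights, 5 with the erythroid covariate, 6 with the T cell, macrophage and erythroid covariates, and 2 to 6 on leaving out 1 tumour, with 6 without WT2. The count of correlated pairs, 16 in all tumours, was 10 with the mean of a gene's probe sets, 10 with the most variable probe set, 10 with genotype means subtracted (7 of the same pairs), 7 by Spearman's rho, 2 without WT3 and KO4, and 5 (without WT3) to 18 (without KO8) on leaving out 1 tumour. The difference of Dnajb1 turned from -0.32 to 0.047 with the T cell, macrophage and erythroid covariates. That of Hspe1, near 0, was -0.007 with array weights, -0.083 with the erythroid covariate, -0.084 with those 3 covariates, and -0.035 to 0.05 on leaving out 1 tumour. The cause of these changes was not tested. The other 8 differences kept their direction under all 30 settings. Same-numbered WT and KO tumours had correlations of -0.23 to 0.49, with 4 of 9 pairs over 0.1, and 1 tumour correlated best with its own number. The labels do not say whether shared numbers mark pairs, and weak correlations cannot exclude it. A fit with the replicate number as a block gave 0 members past the threshold and 3 at an unadjusted p under 0.05. With that block 18 pairs of genes were correlated, 10 of them among the 16. Leaving out each tumour in the relations with marker lists, and WT3 within WT tumours, was added after the data were seen. The precision is limited by 9 arrays per genotype, by the low signal of Dnajb3 in KO6, and by whole-tumour RNA.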
